A study of Mus musculus with 46 samples.

Results

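The 9 genes examined here carry and restrain interferon signalling, and were followed through every polyA RNA-seq experiment of the series: the 4 receptor chains Ifnar1, Ifnar2, Ifngr1 and Ifngr2, the 3 kinases Jak1, Jak2 and Tyk2, and the inhibitors Socs1 and Socs3. They were taken by gene symbol, and all 9 were found once in each of the 8 gene tables, among 24537 genes. The study examined what loss of Arid1a, a DNA-binding part of SWI/SNF, a complex that remodels chromatin, does to interferon pathways in mouse cells. Of its 46 samples, 42 in 21 groups of 2 were used, and 4 total RNA samples were not analysed here.

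B16F10 mouse melanoma cells carried a control guide RNA (sgScramble) or a guide against Arid1a (sgArid1a). The first experiment took subcutaneous tumors of both kinds of cell on day 15. In the second, cells of both guides received PBS or murine interferon-gamma (IFNγ) for 24 h. The third held untreated cultures of both guides, cultures labelled sgArid1a/sgCgas or sgArid1a/sgSting, and sgArid1a cultures given, for 72 h, an antibody that targets the receptor of type I interferons (anti-IFNAR). In the fourth, cells received DMSO (both guides) or ruxolitinib, a JAK1 and JAK2 inhibitor (sgArid1a), for 72 h. The fifth gave sgScramble cells DMSO, a compound with the code name BD98, or BD98 with anti-IFNAR, for 72 h. Untreated MC38 colon cancer cells carried either guide, and Arid1a fl/fl mouse embryonic fibroblasts (MEFs) were collected on day 5 after ethanol (labelled WT) or tamoxifen (labelled Arid1a -/-), so the MEF genotypes also differed in the agent given. The labels do not say whether the guide-bearing cultures were clones or pools, which Cre acted in the MEFs, or whether the 2 libraries of a group came from separate cultures or mice, so p-values measure only the spread between these libraries, which may be technical.

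Type I interferons bind a receptor made of IFNAR1 and IFNAR2, which hold the kinases TYK2 and JAK1. IFNγ binds IFNGR1 and IFNGR2, which hold JAK1 and JAK2. The kinases phosphorylate STAT proteins, which enter the nucleus and switch on interferon-stimulated genes. Socs1 is itself such a gene, and its protein binds and inhibits JAK kinases in a negative feedback loop, while Socs3, induced mainly by IL-6 family cytokines through STAT3, acts on receptors that contain gp130.

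Depth was 8.7 to 38.8 M reads (M, 1e+06 reads) per library. All 7 melanocyte markers were present in each B16F10 table, and 6 of 8 fibroblast markers reached a log2 value of 4 in MEFs. The same fibroblast count was 8 in tumors, 5 in MC38 cells and 4 in the IFNγ experiment, so it hardly sets MEFs apart. In MC38 cells none of 7 colon epithelium markers reached 4, and Epcam and Cdx2 were at 0, so these markers do not bear out the label. Arid1a fell with its guide by 0.32 ± 0.07 log2 units in tumors, 0.58 ± 0.11 in untreated cultures and 0.14 ± 0.03 in MC38 cells, and by 0.43 ± 0.09 in tamoxifen-treated MEFs (limma, adjusted p = 0.0031, 0.0043, 0.00087 and 0.012). With DMSO the difference was -0.26 ± 0.12 (adjusted p = 0.23). Error terms after ± are standard errors of a log2 fold change between 2 and 2 libraries. Calls were made where the adjusted p was under 0.05.

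Libraries of 2 experiments went against their labels. In the IFNγ experiment Irf1, a direct IFNγ target, stood at 9.81 in both libraries labelled PBS sgScramble, 12.53 and 12.34 in those labelled PBS sgArid1a, 10.13 and 10.07 in those labelled IFNγ sgScramble, and 13.04 and 12.97 in those labelled IFNγ sgArid1a. Arid1a was at 12.42 and 12.40, 12.25 and 12.40, 12 and 12.11, and 12.15 and 12.13 in the same order, so it was lower with the IFNγ label than with the PBS label and did not follow the guide label. No direction is therefore drawn for IFNγ or for the guide from the middle 2 groups. Whether the labels of these 2 groups are exchanged was not tested. If they are, each difference given below between the guide labels is one between cytokines, and the reverse. In the libraries labelled sgArid1a/sgCgas and sgArid1a/sgSting, the Arid1a level exceeded that of sgArid1a cells by 0.47 ± 0.11 and 0.36 ± 0.11 (adjusted p = 0.006 and 0.024), near the sgScramble level. The labels of these 4 libraries name the cell lines B16F11 to B16F14. Mb21d1, which encodes cGAS, did not differ in the first (0.00 ± 0.11, adjusted p = 0.99), and Tmem173, which encodes STING, fell by 0.54 ± 0.10 in the second (adjusted p = 0.0015). Frameshifts made by a guide need not remove the transcript, so levels are only a partial check of the labels.

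Most of the 9 genes were expressed at middle to high levels, and their order was similar in the B16F10 experiments. To compare genes, each log2 value was reduced by the log2 of the gene's exon length in kilobases. On that per-length scale Ifngr2, the signal-transducing chain of the IFNγ receptor, was the highest of the 9 in all 6 B16F10 tables, at percentiles 86.2 to 91.9 of detected genes. Jak1, the kinase shared by both receptors, was next at percentiles 78.4 to 80.1, and Ifnar1 followed. Socs1 was lowest in all 6, at percentile 41.3 in tumors, 42.3 in the IFNγ experiment and 25.1 to 27.6 in the other 4. In tumors the libraries of neighbours in this order overlapped for Jak1 and Ifnar1, for Ifngr1 and Ifnar2, for Socs3 and Jak2, and for Jak2 and Tyk2. MC38 cells had another order: Jak1 led at percentile 85.1, Ifngr1 and Socs1 came next, at 66.4 and 59.1, and Tyk2 was lowest at 42. In MEFs Jak1 was highest at percentile 89.8 and Socs1 lowest at 44.6. Tables were normalized separately, so only ranks within a table are set side by side.

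**Figure D1:**
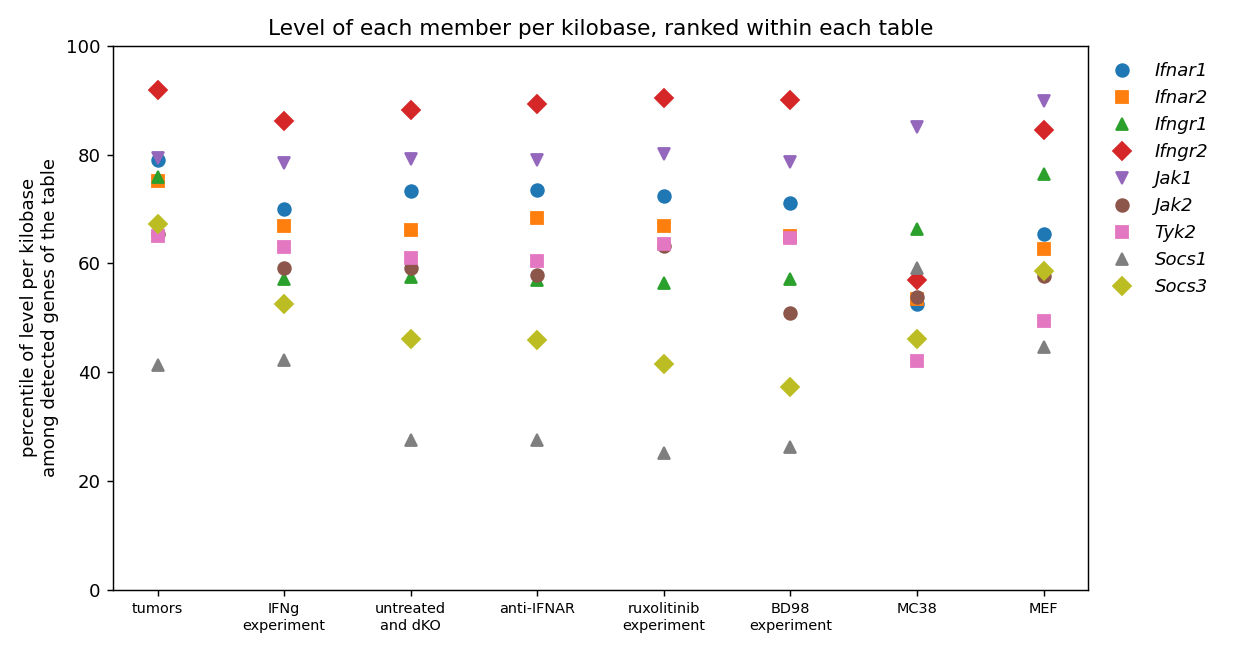
Level of each gene per kilobase in each experiment (x axis), as a percentile among the detected genes of that table (y axis); each point is 1 gene averaged over the libraries. Ifngr2 lies highest and Socs1 lowest in the 6 B16F10 tables, and Jak1 is highest in MC38 cells and MEFs.

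With the Arid1a guide or deletion, 0 to 3 of these genes were called in each of 5 experiments. In tumors 3 of 9 were called, all higher with sgArid1a, where 54% of 13895 genes tested were called. In untreated cultures limma called 0 of 8 (11.8% of all genes; Socs3 was the 1 gene at an unadjusted p under 0.05), and with DMSO 0 of 8 (7.88% of all genes; 0 at an unadjusted p under 0.05). In MC38 cells 2 of 9 were called, 1 higher and 1 lower, against 21.2% of all genes. In MEFs 2 of 9 were called, 1 in each direction, against 9.71% of all genes. These shares were below the background in tumors, untreated and DMSO cultures and close to it in MC38 cells; in MEFs 22.2% were called. With the replicate number as a block, 3 of 9 were called in MEFs, where 41.1% of all genes were. The median log2 fold change of the tested members was 0.03 in tumors, -0.02 in untreated cultures, 0.11 with DMSO, -0.03 in MC38 cells and 0.04 in MEFs, beside -0.02, 0.01, 0.00, 0.00 and -0.01 over all genes tested. The deposited log2 values draw low genes together, so fold changes from them understate the change in reads, most for low genes. The authors' deposited table gives 0.44 for Ifngr1 and 0.36 for Jak2 in tumors, and -0.50 for Ifngr2 in MEFs. For the 2 genes called in MC38 cells the authors give -0.15 for Jak1 and 0.25 for Jak2. Their adjusted p of 0.2 and 0.47 did not reach the threshold.

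**Figure D2:**
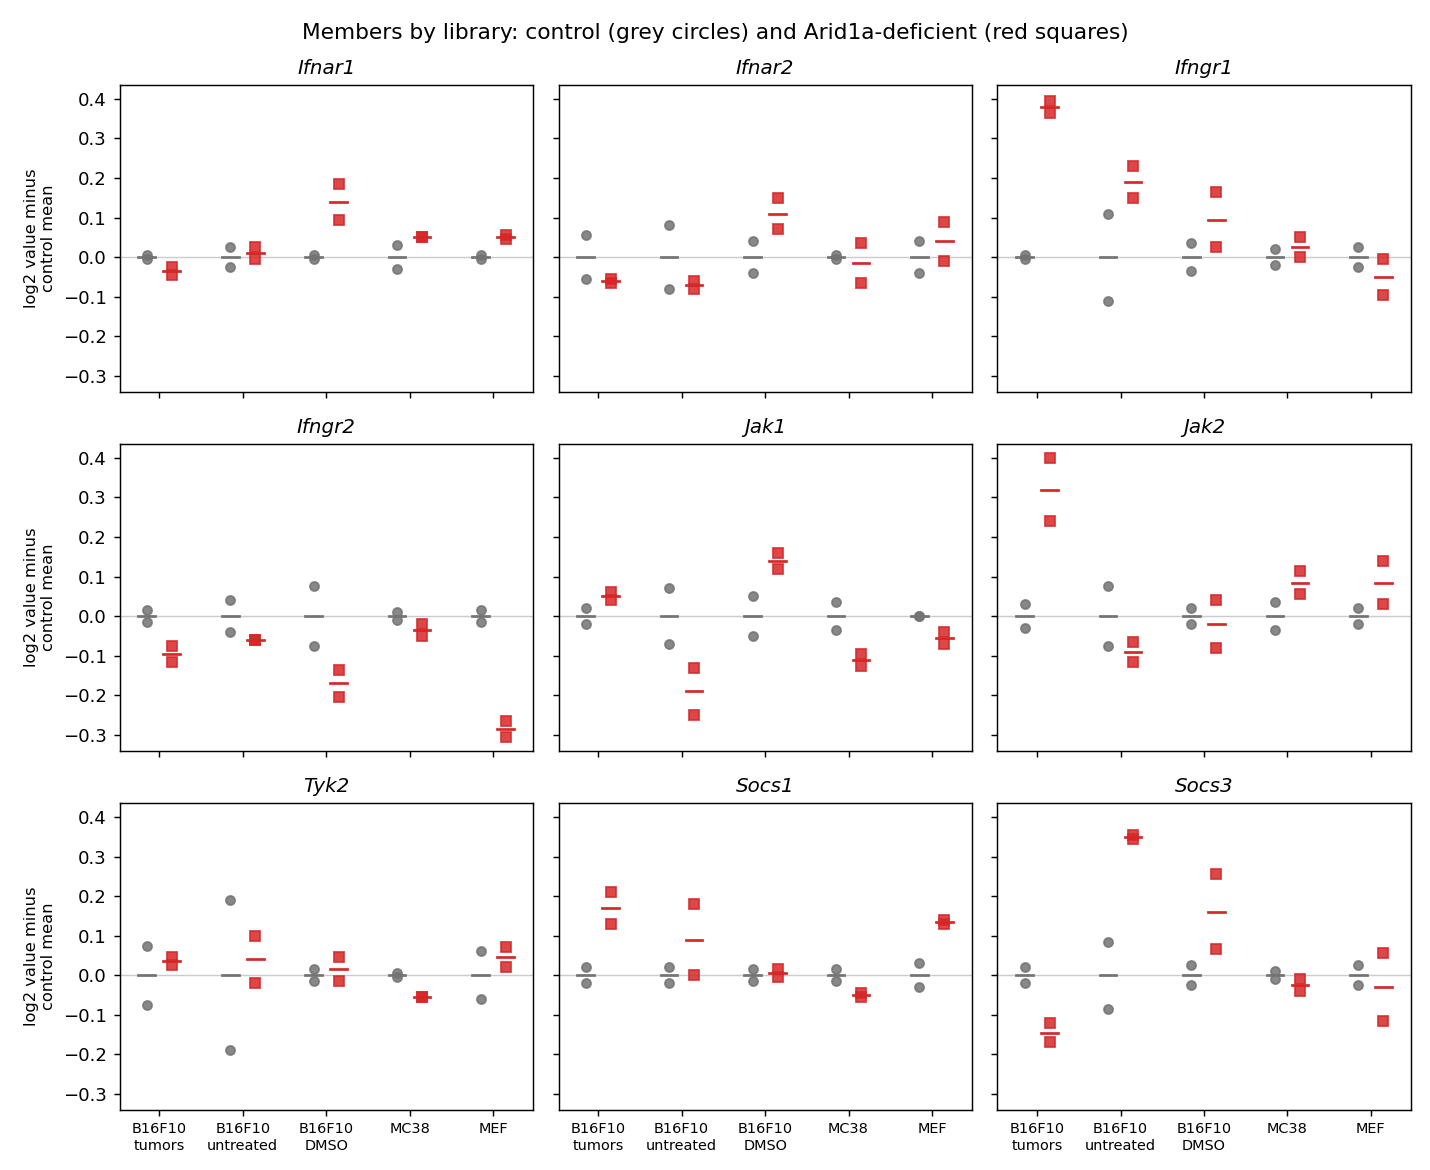
Log2 value of each library minus the mean of the control libraries of its experiment (y axis) in 5 experiments (x axis), for control (grey circles) and Arid1a-deficient libraries (red squares), with short lines at group means. Ifngr1 and Jak2 stand 0.38 and 0.32 above the control mean in tumors, and Ifngr2 lies below it in all 5 experiments.

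Ifnar2 and Ifngr2 were called lower in the libraries labelled with a second guide. With BD98 Ifnar1, Ifnar2 and Ifngr2 were called lower and Ifngr1 higher. Neither anti-IFNAR nor ruxolitinib gave a call. In the libraries labelled sgArid1a/sgCgas 2 of 8 genes were called, both lower than in sgArid1a cells, against 28.7% of all genes tested. In those labelled sgArid1a/sgSting 2 of 8 were called, both lower, against 31.8%. Anti-IFNAR gave 0 calls among 8 (limma; 0.0171% of all genes; Socs3 was the 1 gene at an unadjusted p under 0.05), and ruxolitinib gave 0 among 8 (0.221% of all genes; again Socs3 was the 1 gene at an unadjusted p under 0.05). The sgArid1a/sgCgas, sgArid1a/sgSting, anti-IFNAR and untreated guide comparisons share the untreated sgArid1a libraries, and the ruxolitinib and DMSO guide comparisons share the sgArid1a libraries given DMSO. BD98 gave 7 calls among 9, 2 higher and 5 lower, where 49.9% of 12843 genes were called. Among the higher calls, Socs1 passed the filter on low genes through the libraries given BD98, so its call is no separate support. Among the lower, the Ifnar2 call was lost in 5 of 9 alternatives. Adding anti-IFNAR to BD98 gave 0 of 9 (edgeR; 1.49% of all genes; 0 at an unadjusted p under 0.05 and 0 with DESeq2).

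**Figure D3:**
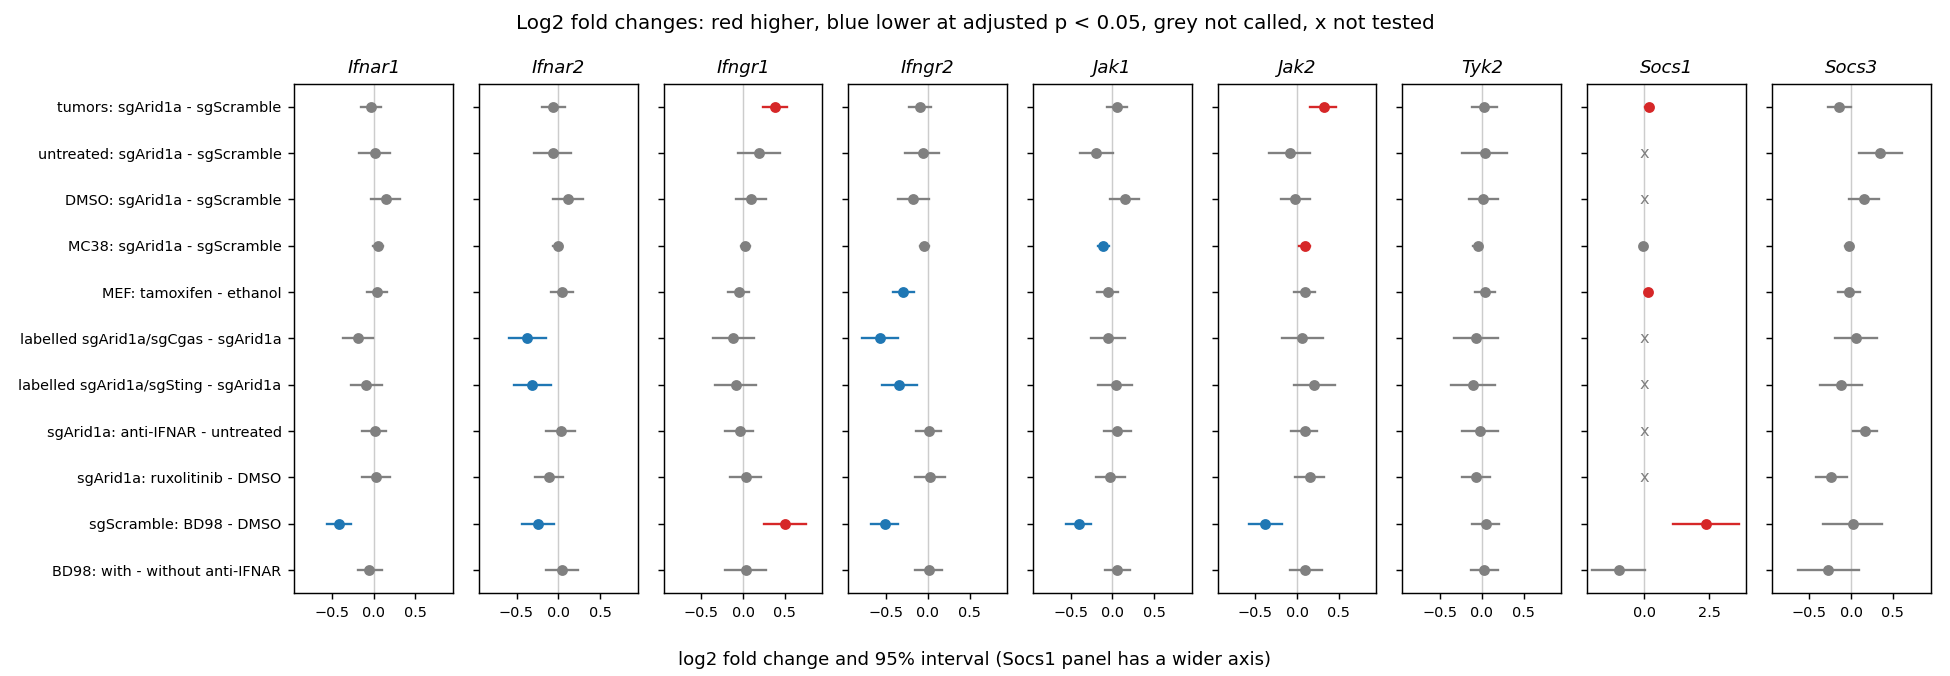
Log2 fold change (points) and 95% interval (lines) on the x axis for each gene (panels) in 11 comparisons (rows), coloured where called. BD98 has 7 coloured points, the guide in tumors 3, and anti-IFNAR and ruxolitinib none. The BD98 point of Socs1 rests on 3 to 18 reads per library. An x marks Socs1 where it was too low to test.

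The 2 IFNγ receptor chains were called in opposite directions with BD98, Ifngr1 higher and Ifngr2 lower. Ifngr1 (NM_010511, mm10 chromosome 10, 19591949 to 19610227, plus strand), the ligand-binding chain, had log2 values of 9.99 and 10 in sgScramble tumors and 10.36 and 10.39 in sgArid1a tumors. Both sgArid1a tumors were above both controls, and the gene rose by 0.38 ± 0.06 (adjusted p = 0.00032). In untreated cultures the control libraries were at 7.58 and 7.80 and the sgArid1a libraries at 7.92 and 7.84. The sgArid1a libraries were higher here too, but the difference of 0.19 ± 0.11 was not called (adjusted p = 0.32). With BD98 it rose from 385 and 254 counts, 17.3 and 17.9 CPM (counts scaled to 1e+06 per library), to 305 and 383 counts, 22.9 and 26.7 CPM, a change of 0.50 ± 0.12 (edgeR adjusted p = 0.0012). With BD98 and anti-IFNAR it stood at 27.2 and 23.7 CPM and overlapped BD98 alone.

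Ifngr2 (NM_008338, chromosome 16, 91547094 to 91564007, plus strand) was the gene most often called lower. In MEFs it was at 9.87 and 9.84 after ethanol and 9.55 and 9.59 after tamoxifen, and fell by 0.29 ± 0.06 (adjusted p = 0.0081). Its libraries were also lower with sgArid1a, without overlap, in tumors (11.81 and 11.84 against 11.75 and 11.71), untreated cultures (10.42 and 10.34 against 10.32 and 10.32), DMSO cultures (10.63 and 10.78 against 10.57 and 10.50) and MC38 cells (7.44 and 7.42 against 7.41 and 7.38). Over all genes tested in the 5 experiments, 0.561% were lower without overlap in all 5. None of those 4 differences was called (-0.09 ± 0.06, -0.06 ± 0.10, -0.17 ± 0.08 and -0.04 ± 0.02, adjusted p = 0.2, 0.72, 0.25 and 0.29). In the libraries labelled sgArid1a/sgCgas it was at 9.80 and 9.70, and fell by 0.57 ± 0.10 from sgArid1a cells (adjusted p = 0.00066). In those labelled sgArid1a/sgSting it was at 10.06 and 9.89 and fell by 0.34 ± 0.10 (adjusted p = 0.017), a call lost without any 1 of 3 of the 4 libraries (adjusted p up to 0.15). With BD98 it went from 145 and 138 CPM to 106 and 92.2, and fell by 0.51 ± 0.08 (edgeR adjusted p = 5.4e-06). With anti-IFNAR added it stayed at 104 and 95.7 CPM.

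The type I receptor chains were called in no Arid1a guide or deletion comparison outside the IFNγ experiment. In tumors Ifnar2 was at 10.74 and 10.63 in sgScramble and 10.63 and 10.62 in sgArid1a libraries (-0.06 ± 0.06, limma adjusted p = 0.45). With DMSO it was at 9.24 and 9.16 against 9.35 and 9.27, also not called. Ifnar1 (NM_010508, chromosome 16, 91485215 to 91510522, plus strand), the chain that anti-IFNAR antibodies usually target, was at 12.19 and 12.18 in sgScramble and 12.14 and 12.16 in sgArid1a tumors, a difference of -0.03 ± 0.06 (adjusted p = 0.67, 95% interval -0.15 to 0.09). In untreated cultures it was at 10.71 and 10.66 against 10.71 and 10.68, and the libraries overlapped. With DMSO Ifnar1 was at 10.71 and 10.70 against 10.89 and 10.80, without overlap, a difference of 0.15 that was not called. Under anti-IFNAR it was at 10.84 and 10.83, beside 10.83 and 10.81 without the antibody (0.01 ± 0.07, 95% interval -0.14 to 0.15, adjusted p = 1). With BD98 it went from 169 and 166 CPM to 129 and 122, and fell by 0.41 ± 0.07 (edgeR adjusted p = 2.1e-05). The 2 libraries with BD98 and anti-IFNAR both stood at 122 CPM.

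Ifnar2 (NM_010509, chromosome 16, 91372783 to 91405587, plus strand), which binds interferon with high affinity, was at 9.08 and 9.06 in untreated sgArid1a cells, 8.67 and 8.73 in the libraries labelled sgArid1a/sgCgas, and 8.75 and 8.78 in those labelled sgArid1a/sgSting. It fell by 0.37 ± 0.10 and 0.31 ± 0.10 (adjusted p = 0.016 and 0.034). Both calls were lost on leaving out any 1 library (adjusted p up to 0.14 and 0.15). With BD98 it went from 51.1 and 50.7 CPM to 39.4 and 46.7 and fell by 0.24 ± 0.09 (edgeR adjusted p = 0.037), which DESeq2 did not call (adjusted p = 0.082; 0.0021 to 0.29 over the alternatives). The edgeR call was also lost with the 4 compared libraries fitted alone (0.051), without either DMSO library (0.15 and 0.12) and without the first BD98 library (0.29). Without the first BD98 library the change was -0.12, and without the second -0.37. Its exons overlap those of Gm21970 on the same strand, so reads where they overlap cannot be told apart. Ifnar1, Ifnar2 and Ifngr2 lie in 1 cluster of receptor genes on chromosome 16, with Il10rb, the shared chain of the IL-10 and lambda interferon receptors. Il10rb fell by 0.49 ± 0.09 and 0.45 ± 0.09 in the libraries labelled sgArid1a/sgCgas and sgArid1a/sgSting (adjusted p = 0.0015 and 0.0023) and by 1.04 ± 0.07 with BD98 (edgeR adjusted p = 3.2e-12). Ifnar1 was called in neither of those labelled sets (10.52 and 10.49, 10.62 and 10.60, beside 10.71 and 10.68 in sgArid1a cells). In tumors Il10rb fell by 0.32 ± 0.06 (limma adjusted p = 0.00083), while Ifnar1, Ifnar2 and Ifngr2 were not called. In MEFs, where Ifngr2 fell, Il10rb did not (0.03 ± 0.05, limma adjusted p = 0.75). Whether the cluster changes together was not tested.

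The kinases changed by less than 1.5-fold throughout. Jak2 (NM_008413, chromosome 19, 29251803 to 29313080, plus strand) was at 10.47 and 10.53 in sgScramble tumors and 10.90 and 10.74 in sgArid1a tumors, and rose by 0.32 ± 0.07 (1.24-fold, adjusted p = 0.0023). In MC38 cells it went from 8.42 and 8.35 to 8.44 and 8.50 and rose by 0.09 ± 0.03 (adjusted p = 0.04), a call lost without any 1 of 3 of the 4 libraries (adjusted p up to 0.43; without the second library of either guide the difference was 0.05). In untreated and DMSO cultures the differences were -0.08 ± 0.11 and -0.02 ± 0.08 (adjusted p = 0.69 and 0.92). BD98 took it from 46.8 and 47.2 CPM to 33.6 and 38.8, a fall by 0.38 ± 0.10 (edgeR adjusted p = 0.0019).

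Jak1 (NM_146145, chromosome 4, 101151974 to 101265282, minus strand) had values of 11.04 and 10.97 in sgScramble and 10.88 and 10.91 in sgArid1a MC38 cells, and fell by 0.11 ± 0.03 (adjusted p = 0.012). That call too was lost without any 1 of 3 of the 4 libraries (adjusted p up to 0.22; -0.07 without the first sgScramble library). In tumors the libraries were at 11.79 and 11.75 against 11.83 and 11.81, a difference of 0.05 ± 0.06 (adjusted p = 0.45). With BD98 it went from 167 and 172 CPM to 123 and 135 and fell by 0.40 ± 0.07 (edgeR adjusted p = 4.7e-05). Its exons overlap those of Raver2 on the opposite strand, and the counting commands state no strand option, so reads of the 2 genes cannot be told apart where they overlap. Under ruxolitinib, which blocks the JAK1 and JAK2 enzymes and not their mRNA, Jak1 stood at 11 and 10.97 and Jak2 at 9.85 and 9.78, beside 11.03 and 10.99, and 9.73 and 9.61, with DMSO. The differences were -0.03 ± 0.08 and 0.15 ± 0.08 (adjusted p = 0.92 and 0.54).

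Tyk2 (NM_018793, chromosome 9, 21104068 to 21131275, minus strand), the kinase of IFNAR1, had the smallest spread of the 9 over all 42 libraries, with a standard deviation of 0.07 after each table was centred; in the 36 libraries outside the BD98 experiment it was 0.08, and that of Ifnar1 0.05. Its exons overlap those of the antisense gene 1700084C06Rik, with the same limit as for Jak1. It was called in none of the 11 comparisons outside the IFNγ experiment. In tumors it was at 10.46 and 10.61 against 10.58 and 10.56, and with BD98 at 69.7 and 69.7 CPM against 72.3 and 71.4 (0.05 ± 0.08, edgeR adjusted p = 0.66, 95% interval -0.12 to 0.21). It was thus the 1 receptor-bound kinase of the 3 not called lower with BD98; the difference between kinases was not tested.

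Socs1 had the widest spread of the 9 over the 42 libraries, with a standard deviation of 0.33, but it was 0.13 in the 36 libraries outside the BD98 experiment, where Ifngr2 had 0.19. Values of those 36 libraries draw low genes such as Socs1 together, and BD98 values are log2 CPM, so the spreads are on unlike scales. Between the libraries labelled IFNγ sgArid1a and PBS sgScramble the authors' deposited fold changes were 2.09 for Socs1 and -0.73 for Ifngr2. The promoters of Socs1 and Socs3 are shown because the 2 inhibitors hold different interferon and STAT motifs, and those of Ifnar2 and Ifngr2 because both were called lower in 3 comparisons. Of these, 2 share the untreated sgArid1a libraries, and the Ifnar2 call was lost in some alternatives of each. Between the libraries labelled IFNγ sgArid1a and PBS sgScramble, Ifnar2 was called higher and Ifngr2 lower. All 9 genes matched the RefSeq promoter table (GRCm38.p6), and the 250 bases before each start in that table are given 5′ to 3′. For Ifngr2 that start lies 35 bases before the start of the transcript named above, and for the other 3 it is the same. Capitals mark matches to GAAANNGAA, a core of the interferon-stimulated response element, or to TTCNNNGAA, the STAT-binding GAS motif, searched on both strands.
Socs1 (chr16:10785537-10785786, minus strand): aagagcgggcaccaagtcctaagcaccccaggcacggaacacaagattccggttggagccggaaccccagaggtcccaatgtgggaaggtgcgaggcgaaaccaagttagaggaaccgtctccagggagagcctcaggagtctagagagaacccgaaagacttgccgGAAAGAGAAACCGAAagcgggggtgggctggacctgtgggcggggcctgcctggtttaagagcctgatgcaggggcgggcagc
Socs3 (chr11:117969367-117969616, minus strand): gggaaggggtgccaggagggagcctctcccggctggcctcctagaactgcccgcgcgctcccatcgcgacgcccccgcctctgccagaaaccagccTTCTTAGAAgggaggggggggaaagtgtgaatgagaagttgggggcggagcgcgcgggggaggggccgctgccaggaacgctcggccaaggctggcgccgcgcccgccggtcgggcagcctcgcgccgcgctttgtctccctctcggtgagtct
Ifnar2 (chr16:91372533-91372782, plus strand): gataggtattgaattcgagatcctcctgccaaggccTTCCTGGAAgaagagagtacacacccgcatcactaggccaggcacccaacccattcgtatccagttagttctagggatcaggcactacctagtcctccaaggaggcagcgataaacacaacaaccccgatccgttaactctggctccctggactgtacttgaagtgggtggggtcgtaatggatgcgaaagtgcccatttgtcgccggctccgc
Ifngr2 (chr16:91546809-91547058, plus strand): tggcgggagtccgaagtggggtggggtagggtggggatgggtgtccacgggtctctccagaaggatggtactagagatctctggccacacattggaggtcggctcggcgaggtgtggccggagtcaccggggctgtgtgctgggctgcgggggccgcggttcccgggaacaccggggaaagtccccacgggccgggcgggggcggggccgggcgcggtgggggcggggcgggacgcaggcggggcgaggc
In Socs1 the capitals hold 2 overlapping matches, GAAAGAGAA from -83 to -75 and GAAACCGAA from -77 to -69, with the start base counted as 0. Socs3 has TTCTTAGAA from -154 to -146 and Ifnar2 TTCCTGGAA from -214 to -206. The only other match among the 9, with 50 bases after the start included, was a GAS match at the start of Ifnar1. Ifngr2 has no match in this window. Of all 32851 promoters of this length in the table, 8.56% hold the first motif and 8.3% the second, so a match is a description of the sequence and not a site of binding.

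Socs1 (NM_001271603, chromosome 16, 10783809 to 10785536, minus strand) rose with BD98. Its counts were 5 and 3 under DMSO (0.224 and 0.212 CPM), 18 and 14 under BD98 (1.35 and 0.975 CPM), and 11 and 12 where anti-IFNAR was added (0.635 and 0.547 CPM). The 3 groups did not overlap, and both libraries with the antibody stood between the other groups. The rise with BD98 was 2.36 ± 0.61 (5.15-fold, 95% interval 1.11 to 3.62, edgeR adjusted p = 0.0022). The difference with the antibody added was -0.97 ± 0.49 (95% interval -1.99 to 0.04, adjusted p = 0.43) and was not called. These values rest on 3 to 18 reads per library. The filter on low genes asks for enough reads in only as many libraries as a group holds. Socs1 thus entered the test through the libraries given BD98, where it was high, and not through those given DMSO. Its fold change and p-value therefore describe these counts and are no separate support. The call was also made with no filter.

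**Figure D4:**
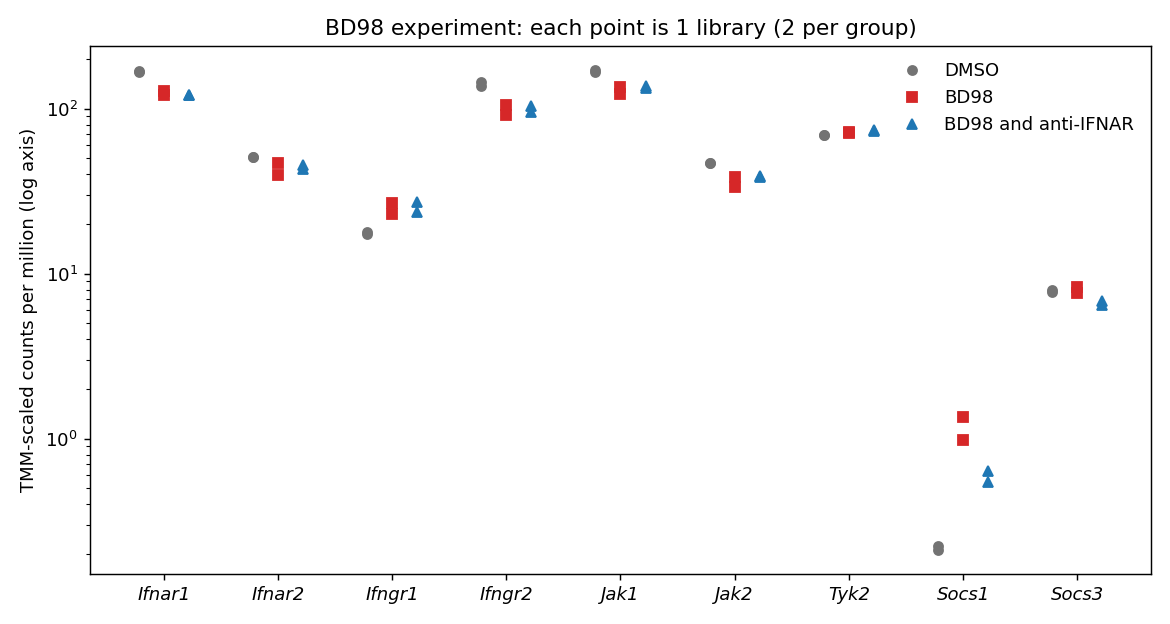
TMM-scaled CPM (y axis, log scale) of the 9 genes (x axis) with DMSO, BD98, or BD98 and anti-IFNAR; each point is 1 library. Socs1 is lowest, at 0.212 to 1.35, and separates the 3 groups, while the antibody leaves Ifnar1, Ifngr2, Jak1 and Jak2 near their BD98 values.

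On the deposited log2 scale Socs1 was called higher in tumors and MEFs. Control tumors were at 6.09 and 6.13 and sgArid1a tumors at 6.24 and 6.32, a rise by 0.17 ± 0.07 (adjusted p = 0.044). This call was lost with the replicate number as a block (adjusted p = 0.065), with no filter on low genes (0.056), and without 3 of the 4 tumors in turn (0.051 to 0.23; 0.037 to 0.23 over all alternatives). In the authors' deposited table the Socs1 change in tumors was 0.43 with an adjusted p of 0.29. In MEFs it was at 5.70 and 5.76 after ethanol and 5.87 and 5.86 after tamoxifen, and rose by 0.14 ± 0.03 (adjusted p = 0.02; 0.088 without the first ethanol library). The authors' deposited table gives 0.97 and an adjusted p of 0.13 there. In MC38 cells it was at 6.97 and 7 against 6.94 and 6.93, a difference of -0.05 ± 0.02 that was not called (adjusted p = 0.12). In untreated, anti-IFNAR and ruxolitinib cultures its mean was under the log2 value of 4 required for a test, at 2.54 to 3.31 in every library.

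Socs3 (NM_007707, chromosome 11, 117966087 to 117969366, minus strand) was called in no comparison made here. Untreated control cultures were at 6.77 and 6.94 and sgArid1a cultures at 7.20 and 7.21. Both sgArid1a libraries were above both controls, but the difference of 0.35 ± 0.12 missed the threshold (limma adjusted p = 0.068). Without the second sgScramble library, of 22.8 M reads, the difference was 0.44. It then rested on the first sgScramble library alone, which had the lowest depth of all libraries used (8.7 M reads). In tumors the order was the other way, at 9.97 and 10.01 against 9.87 and 9.82 (-0.14 ± 0.07, adjusted p = 0.093). With anti-IFNAR it was at 7.55 and 7.51, above 7.36 and 7.36 in the same table (0.17 ± 0.07, adjusted p = 1). Ruxolitinib took it to 6.63 and 6.83 from 6.88 and 7.07 with DMSO (-0.24 ± 0.09, adjusted p = 0.47). BD98 left it at 8.34 and 7.66 CPM, beside 7.98 and 7.76 (0.02 ± 0.17, edgeR adjusted p = 0.93). For Socs3 in untreated cultures the authors' deposited table gives 0.53 (adjusted p = 0.2). Against sgScramble it gives 0.92 for sgArid1a with anti-IFNAR (adjusted p = 0.00018), a comparison not made here. For the libraries labelled sgArid1a/sgCgas and sgArid1a/sgSting against sgScramble, also not compared here, it gives 0.64 and 0.37 (adjusted p = 0.017 and 0.42).

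In the tumors, markers of several other cell types differed beside Ifngr1, Jak2 and Socs1. All 10 macrophage markers were called higher with sgArid1a (median 1.17), and their summed level on the linear scale was 16500 to 16800 in sgScramble and 30800 to 31400 in sgArid1a tumors. All 4 tested T cell markers and 3 NK markers were higher, with sums of 119 to 121 against 161 to 162 and 101 to 104 against 131 to 132. Of the dendritic list 4 of 5 were higher (318 to 333 against 379 to 398), of the endothelial 5 of 6 (4460 to 4840 against 5660 in both), and of the skeletal muscle list 7 of 7 (1520 to 1610 against 11300 in both). All 3 erythroid markers were lower, with sums of 4220 to 4610 against 1470 to 1610. Of 3 tested neutrophil markers 1 was higher and 2 lower (250 to 252 against 191 to 197), of 8 fibroblast markers 3 were higher and 3 lower (71700 to 75100 against 63400 to 64100), and of 2 B cell markers 1 was higher and 1 lower (44.1 to 45.4 against 47.6 to 47.7). Of 7 melanocyte markers 1 was higher and 3 lower (825000 to 840000 against 611000 to 617000), and no marker of these lists was at 0. The part of the cell mixture in the tumor differences was not tested, and in bulk tissue more cells of a type cannot be told apart from more RNA per cell.

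The IFNγ experiment is given by its labels. Socs1 was at 6.15 and 6.21 in the libraries labelled PBS sgScramble, 6.58 and 6.47 in those labelled PBS sgArid1a, 6.14 and 6.17 in those labelled IFNγ sgScramble, and 6.74 and 6.75 in those labelled IFNγ sgArid1a. It was high and low in the same libraries as Irf1. Ifngr2 (11.28 and 11.23, 11.24 and 11.19, 10.94 and 10.85, 10.73 and 10.55) and Jak1 (11.55 and 11.58, 11.61 and 11.50, 11.75 and 11.79, 11.82 and 11.83) instead split by the IFNγ label, as Arid1a did. Between the libraries labelled PBS sgArid1a and PBS sgScramble 2 of 9 genes were called, both higher (2.72% of all genes), namely Socs1 (0.34 ± 0.04, adjusted p = 6.2e-05) and Ifnar2 (0.19 ± 0.05, adjusted p = 0.037). The Ifnar2 call was lost without either library labelled PBS sgScramble or the second labelled PBS sgArid1a (adjusted p up to 0.41). Between the libraries labelled IFNγ sgScramble and PBS sgScramble 3 of 9 were called (35% of all genes): Ifngr2 fell by 0.36 ± 0.05, and Jak1 and Tyk2 were higher by 0.21 ± 0.04 and 0.22 ± 0.05. Jak2, at 0.09 ± 0.05, was called only without the first library labelled IFNγ sgScramble (0.17, adjusted p = 0.011). Between those labelled IFNγ sgArid1a and PBS sgArid1a 4 of 9 were called (42.3% of all genes): Ifngr2 fell by 0.58 ± 0.05, and Jak1, Jak2 and Socs1 were higher by 0.27 ± 0.04, 0.22 ± 0.05 and 0.22 ± 0.04. The interaction of the 2 labels gave 0 of 9 (limma; 0.882% of all genes; 3 at an unadjusted p under 0.05), with Socs1 at 0.25 ± 0.06 (adjusted p = 0.083). It was called without the first library labelled PBS sgArid1a (adjusted p = 0.045), and both Socs1 and Ifngr2 without the second labelled IFNγ sgScramble (0.021 and 0.029).

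Without the 4 libraries that go against their labels, those labelled IFNγ sgArid1a and PBS sgScramble can still be compared, though guide and cytokine then cannot be told apart. Here 6 of 9 genes were called, 5 higher and 1 lower, where 46.8% of all genes were. Ifngr2 fell by 0.62 ± 0.05, while Socs1 rose by 0.56 ± 0.04, Jak2 by 0.30 ± 0.04, Jak1 by 0.26 ± 0.04, Tyk2 by 0.24 ± 0.04 and Ifnar2 by 0.18 ± 0.04 (adjusted p at most 0.0012). Ifnar1 and Ifngr1 were at -0.03 ± 0.04 and -0.09 ± 0.05 (adjusted p = 0.57 and 0.14). The authors' deposited table gives 2.09 for Socs1 in this comparison (adjusted p = 5.6e-32).

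**Figure D5:**
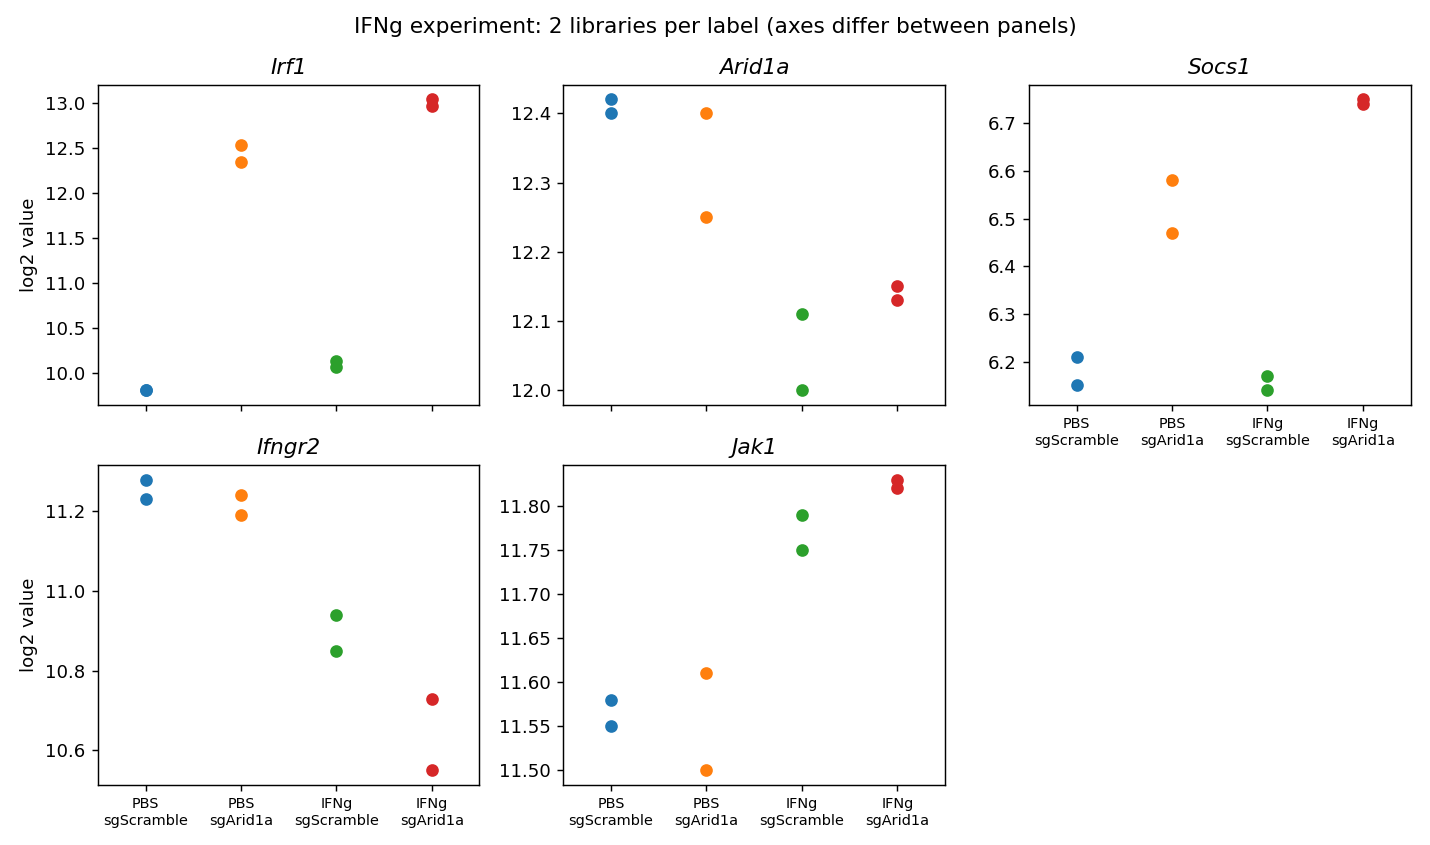
Log2 value (y axis, differing between panels) of 5 genes in the IFNγ experiment, with 2 libraries for each label (x axis). Irf1 and Socs1 are higher in both groups labelled sgArid1a, and Ifngr2 is lower, and Jak1 higher, in both groups labelled IFNγ.

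Of 41 other genes of the pathway (ligands, other receptors, Jak3, STATs and their partners, other SOCS genes, phosphatases and further inhibitors), 26 to 34 were tested per table. In tumors 14 of 34 rose and 7 fell (61.8%, beside 54% of all genes), and among those that rose were Usp18, an inhibitor that binds IFNAR2 (1.41 ± 0.08), the leukocyte phosphatase Ptprc (1.22 ± 0.08) and the IL-10 receptor chain Il10ra (1.14 ± 0.07; all adjusted p at most 1.1e-07). Ptprc and Il10ra were high enough for a test only in tumors, where markers of macrophages and other cell types also differed. The part of the cell mixture in these counts was not tested. In untreated cultures 5 of 28 rose and 0 fell (17.9% beside 11.8%), among them Irf1 (0.84 ± 0.12), Usp18 (0.73 ± 0.13) and Irf9 (0.66 ± 0.11). With DMSO 4 of 28 rose and 0 fell (14.3% beside 7.88%). In MC38 cells 8 of 26 rose and 2 fell (38.5% beside 21.2%), and in MEFs 6 of 29 rose and 0 fell (20.7% beside 9.71%), Usp18 among them in both (0.61 ± 0.03 and 1.97 ± 0.06). With ruxolitinib 0 of 28 rose and 4 fell (14.3% beside 0.221%), among them Usp18 by 0.70 ± 0.07, Irf9 by 0.74 ± 0.08 and Socs2, another SOCS inhibitor, by 0.38 ± 0.06 (adjusted p at most 0.012). With anti-IFNAR 1 of 29 fell (3.45% beside 0.0171%), Irf9 by 0.60 ± 0.07 (adjusted p = 0.023). In the libraries labelled sgArid1a/sgCgas 1 of 28 rose and 6 fell (25% beside 28.7%), and in those labelled sgArid1a/sgSting 1 rose and 4 fell (17.9% beside 31.8%), so neither share exceeded that of all genes. With BD98 11 of 30 rose and 8 fell (63.3% beside 49.9%), and among those that rose were the cytokine gene Lif (5.46 ± 0.33) and Irf9 (1.95 ± 0.13). Lif was too low to test in the untreated, anti-IFNAR and ruxolitinib experiments. Whether it passed the filter only through the libraries given BD98 was not tested, so its fold change is a description. With the antibody added 0 of 30 rose and 4 fell (13.3% beside 1.49%), among them Irf9, which fell by 1.56 ± 0.12, Usp18, which fell by 1.56 ± 0.18, and Stat2, which fell by 0.79 ± 0.10. In the IFNγ experiment, where the labels are in doubt, 20%, 36.7%, 56.7% and 13.3% of 30 were called in the 4 comparisons, in the order given above, beside 2.72%, 35%, 42.3% and 0.882% of all genes.

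Over the 42 libraries, each table centred on its own mean, the 2 genes with the most similar pattern to each member were found among 9838 genes. For Socs1 these were Dhx58 and Tmem106a (r = 0.91 and 0.89), for Ifngr2 Mxra7 and Emp1 (0.89 and 0.86), for Jak1 Aplp2 and Spire1 (0.89 and 0.84), and for Jak2 Fnip1 and Pikfyve (0.87 and 0.85). For Ifnar1 they were Acsl3 and Il10rb (both 0.88), for Ifnar2 Rab7 and Gm5512 (0.86 and 0.85), and for Ifngr1 Kdelr2 and Mfsd8 (both 0.87). Socs3 (Ccnd3 and Rtkn, 0.75 and 0.73) and Tyk2 (Mogs and Usf1, both 0.65) had less similar partners. Among the members Jak1 and Jak2 were most alike (r = 0.63), and Ifnar1 and Socs1 most opposed (r = -0.66). These correlations are descriptions, since the libraries share groups, tables and depth, and the BD98 experiment has the widest spread. Without it, over 36 libraries, Socs1 had r = 0.76 and 0.75 with its 2 partners and Ifnar1 0.58 and 0.63, while the other members had 0.64 to 0.91. Socs1 itself was below the level required of its partners, and its BD98 values rest on 3 to 18 reads.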

How the data were processed

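PolyA RNA of 42 mouse libraries was analysed from 8 gene tables. The submitters' processing notes name STAR 2.5.3a, HOMER and the build GRCm38 (mm10); the HOMER commands, per the file headers, state no strand option. In 7 tables the authors deposited normalized log2 values in which low values are drawn together. The BD98 table holds raw exon counts per gene, per the file headers. The authors' deposited fold changes and p-values were used only where named. For 10 columns of other samples the values were not used.

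The members and gene lists were chosen with earlier results of these data known. Log2 values were fitted with limma 3.58.1 (trend) on genes with a mean of at least 4, and counts with the quasi-likelihood test of edgeR 4.0.16 (TMM, filterByExpr), all groups of a table together, in R 4.3.3. P-values were Benjamini-Hochberg adjusted over all genes tested, and called under 0.05. Other settings were no filter, median centring, only the compared groups, the replicate number as a block, each library left out, and for counts DESeq2 1.42.0 and its size factors. The contrast of the libraries labelled IFNγ sgArid1a and PBS sgScramble, and the spread and likeness without the BD98 experiment, were added after seeing the data. The code was tested on simulated data. Genes other than members were named by a rule: label checks, interferon targets, up to 4 called pathway genes with the smallest p, and the 2 most similar genes. A gene that this rule names is not reported here, though the counts include it.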

Additional observations from a re-analysis of the deposited data

Results flagged for a closer look

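For 4 of the 9 genes the Arid1a-deficient libraries lay wholly above the controls in 1 experiment and wholly below them in another. Of all genes tested in 2 or more of the 5 experiments, 47.2% did so too, so the share of members is near that of all genes. The difference between experiments was not tested, and none of the 4 pairs had a call on both sides. For Socs3 the log2 difference was 0.35 in untreated cultures and -0.14 in tumors, 0.49 apart. For Jak1 it was 0.15 with DMSO and -0.19 in untreated cultures, 0.34 apart. For Socs1 it was 0.17 in tumors and -0.05 in MC38 cells, 0.22 apart, and for Ifnar1 it was 0.15 with DMSO and -0.03 in tumors, 0.18 apart. The experiments were normalized separately and their values draw low genes together, so the sizes and order of these gaps are descriptions only. The authors' deposited fold changes are 0.43 and -0.3 for Socs1 in tumors and MC38 cells. For Socs3 they are 0.53 in untreated cultures and -0.16 in tumors.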

How the results depend on the processing

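Of 33 called differences of the 9 genes, 24 kept their call in every alternative, and no called difference changed sign. Of the 33, 6 came from the contrast of libraries labelled IFNγ sgArid1a and PBS sgScramble, added after seeing the data. It had only 4 alternatives, each leaving out 1 library, and lost no call. A further 2, 3 and 4 came from comparisons by the doubtful labels of the IFNγ experiment. Outside the IFNγ experiment a smaller share of the calls was kept. Numbers of called members changed by more than 1.5 times as follows. Median centring gave 1 and not 2 for the labelled PBS guide comparison and 1 and not 2 for sgArid1a/sgSting, and no filter gave 1 and not 2 in MC38 cells. Fitting only the compared groups gave 3 for sgArid1a/sgCgas (Ifnar1 at -0.19, adjusted p = 0.03). Leaving out 1 library at a time gave 1 to 2 for the labelled PBS guide comparison, 0 to 2 for the interaction, 0 to 1 in untreated cultures, 1 for sgArid1a/sgCgas, 0 to 1 for sgArid1a/sgSting, 0 to 2 with DMSO (2 without the first sgScramble library: Ifngr2 at -0.24 and Jak1 at 0.19), 0 to 1 in MC38 cells and 1 to 2 in MEFs. A group left with 1 library was assumed to vary like the others. In untreated cultures the first sgScramble library had 8.7 M reads beside 22.8 M in the second, so fits without the second rest on a shallow control. With the replicate number as a block, 2 members were called in tumors, 3 in MEFs (Jak2 at 0.09, adjusted p = 0.044), and the other counts were unchanged. Same-numbered libraries deviated together in part only (correlations of -0.51 in tumors to 0.69 in MEFs), and no label ties a number to a shared source, so the numbers were not taken to pair them. In MEFs, where first and second libraries also had like depths (21.9 and 21.4 M reads, 12.1 and 11 M), pairing cannot be told from these 4 libraries. No block could be fitted for sgArid1a/sgSting, whose columns carry no replicate number. With the block, calls over all genes went from 1372 to 678 in untreated cultures, from 192 to 355 for anti-IFNAR on BD98 and from 1183 to 5013 in MEFs. With only the compared groups fitted they went from 1372 to 642 in untreated cultures, 3329 to 5135 for sgArid1a/sgCgas, 2 to 18 for anti-IFNAR and 26 to 89 for ruxolitinib. Leaving out 1 library gave 451 to 2840 in untreated cultures (2840 without the second sgScramble library), 182 to 3240 with DMSO (from 928; 3240 and 1704 without the first and second sgScramble libraries), 57 to 881 for the interaction (from 109; 881 without the second library labelled IFNγ sgScramble), 1468 to 2130 for sgArid1a/sgCgas, 1610 to 3072 for sgArid1a/sgSting (from 3688), 0 to 1 for anti-IFNAR, 4 to 18 for ruxolitinib, 86 to 810 for anti-IFNAR on BD98 (810 without the second BD98 library), 208 to 241 for the labelled PBS guide comparison (from 336) and 1156 to 2274 in MC38 cells (from 2443), so the shares of all genes beside these member counts move likewise. With 2 libraries per group, the precision is limited, as it is by the 3 to 18 reads of Socs1 in the BD98 experiment.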
